A study of Mus musculus with 6 samples.

Results

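The 46 genes described here encode the machinery of mitosis: the kinases and cyclins that start it, the spindle checkpoint, the kinetochore, the spindle motors, the proteins that shape chromosomes, the anaphase machinery and the proteins of cytokinesis. They were taken by symbol from the 26147 genes of the table. Each of the 46 names had 1 row, and all 46 passed the filter on low values that left 18914 genes for testing. RNA of the retina at embryonic day 13.5 was compared between 3 libraries of wild type and 3 of a conditional knockout of Tbx3 (Tbx3 cKO). All animals had a C57Bl/6J background. The wild types were siblings without Dkk3-Cre that carried Tbx3Fl/+, so they held a floxed allele too, and the cKO embryos were Dkk3-Cre+ and Tbx3∆Fl/∆Fl. Dkk3-Cre is a transgene used to delete floxed genes in retinal progenitors. Because the wild types lacked Cre, Cre activity and loss of Tbx3 cannot be told apart. The number of embryos behind each library is not in the labels, so p-values measure the spread between these libraries, which may be partly technical.

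Mitosis follows a fixed order. Cyclin-dependent kinase 1 with its A and B cyclins drives entry, condensins and topoisomerase compact the chromosomes, kinetochores bind them to the spindle, and the checkpoint holds the cell until all are attached. The anaphase-promoting complex then destroys securin and cyclin B, separase opens the cohesin rings, and the central spindle guides the cleavage furrow. In the embryonic retina the dividing cells are progenitors, while newly formed neurons have left the cycle, so RNA of these genes comes mainly from progenitors and from any dividing cell of other tissue in the sample. In whole tissue, fewer dividing cells and less RNA per dividing cell cannot be told apart.

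Many promoters of these genes share short sequence elements, the CHR (cell cycle genes homology region), bound by the DREAM and MuvB complexes, and the CCAAT box, bound by NF-Y. Of the 46 genes, 38 matched the RefSeq promoter table (GRCm38.p6), with 41 windows of 300 bases, from 250 before to 50 after a transcription start. The CHR was searched as TTTGAA or TTCGAA and the box as CCAAT, on both strands. TTTGAA was in 31 of the 41 windows (75.6%), against 17.9% of all 32851 windows in the table. TTCGAA was in 4 windows (9.76%, against 1.56% of all), and CCAAT in 30 (73.2%, against 37.4%). Either CHR form together with CCAAT was in 28 windows (68.3%), against 7.52% of all, and in no member window did the letters of the elements overlap. Within 50 bases of the start, a span chosen after the matches were seen, either CHR form was in 30 of the 41 windows (73.2%), against 5.31% of all.

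The stretches below show how the elements sit upstream of 3 genes with all cKO values below all wild-type values (Top2a, Ncapg and Mki67) and of 3 genes with overlapping groups (Cdc20, Cdk1 and Kif11). They were chosen because the CHR lies within the printed bases. Each is 100 bases, 5′ to 3′, that end before the more upstream of the starts in RefSeq and GENCODE M21. The end lies directly before the RefSeq start for Top2a, Mki67 and Kif11, and 6 bases further upstream for Ncapg, 9 for Cdc20 and 26 for Cdk1. The stretches are printed with TTTGAA and CCAAT in capitals in either orientation (TTCAAA and ATTGG are their reverse complements). The coordinates (GRCm38.p6) are chr11:99024190-99024289, minus strand, for Top2a, chr5:45669819-45669918, plus strand, for Ncapg and chr7:135716380-135716479, minus strand, for Mki67. They are chr4:118437353-118437452, minus strand, for Cdc20, chr10:69352939-69353038, minus strand, for Cdk1 and chr19:37376282-37376381, plus strand, for Kif11.
Top2a: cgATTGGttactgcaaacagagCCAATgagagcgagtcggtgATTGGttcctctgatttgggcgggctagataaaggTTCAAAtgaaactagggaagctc
Ncapg: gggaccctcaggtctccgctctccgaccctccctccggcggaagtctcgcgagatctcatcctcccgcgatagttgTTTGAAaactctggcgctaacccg
Mki67: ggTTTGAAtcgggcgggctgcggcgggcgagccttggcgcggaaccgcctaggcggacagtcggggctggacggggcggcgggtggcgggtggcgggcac
Cdc20: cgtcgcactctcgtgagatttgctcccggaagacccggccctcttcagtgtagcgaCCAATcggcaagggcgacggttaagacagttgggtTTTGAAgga
Cdk1: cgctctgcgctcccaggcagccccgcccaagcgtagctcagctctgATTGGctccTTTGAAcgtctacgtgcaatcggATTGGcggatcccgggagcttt
Kif11: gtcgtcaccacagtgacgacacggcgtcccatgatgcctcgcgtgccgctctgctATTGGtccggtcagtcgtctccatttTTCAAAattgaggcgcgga
Both kinds of gene carry the elements. In Ncapg and Mki67 only TTTGAA lies within the printed bases, and their CCAAT matches lie further upstream in the window. Over the whole windows, TTTGAA or TTCGAA was in 16 of 19 windows (84.2%) of the genes with no overlap that were lower and in 17 of 22 (77.3%) of the other members. CCAAT was in 73.7% and 72.7% of those windows. These are matches of letters, and no binding was measured.

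Each library rested on an estimated 21461403 to 27147408 reads. Tbx3 ranged from 1998 to 2577 in wild type and from 40.3 to 58.9 in the cKO (log2 fold change -5.58, limma adjusted p = 0.000342), as the labels say. The retinal progenitor gene Rax was present in every library, at 6867 to 7851 for wild type and 4346 to 7684 for cKO. Library Tbx3 cKO 3 stood apart from the other cKO libraries in its cell type markers. Its 8 neurogenic progenitor markers summed to 5.54% of the wild-type mean and its 9 ganglion cell markers to 1.44%. Its 7 measured pigment epithelium markers summed to 788%. Wild type 1 stood apart from the other wild types. Its ganglion cell markers summed to 82335, where the others had 14801 and 25044. Its photoreceptor precursor markers summed to 9097 (2552 and 3362 in the others) and its pigment epithelium markers to 812 (5623 and 3899). Results are therefore also given without each of these libraries.

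Most mitosis genes had slightly lower RNA levels in the Tbx3 cKO retina, and none passed the test over all genes. All levels are the authors' normalized read counts, and all log2 fold changes are cKO minus wild type on the scale log2(value + 1). The log2 fold change was negative in 42 of 46 genes and positive in 4, and its median was -0.21, where the median of all 18914 tested genes was -0.02. By limma-trend with Benjamini-Hochberg adjustment over all tested genes, 0 of 46 were called lower, against 0.0317% of all genes, and 0 were called higher, also against 0.0317%. The adjusted p of the members ran from 0.255 to 0.968. At an unadjusted p under 0.05 stood 15 members lower (32.6%), where 7.16% of all genes did, and 0 higher, where 6.39% did. In 19 members (41.3%) all 3 cKO values lay below all 3 wild-type values, against 11.7% of all genes, and in 1 member (Pttg1) they lay above, against 10.6%. The means of the 19 genes were 11.0 to 33.8% below wild type. Kif4, Nusap1, Ncapg and Prc1 share exon bases with a gene on the opposite strand, and Top2a with a small RNA, so their values are less certain. The genes share their libraries and vary together, so the 46 do not count as separate results.

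**Figure D1:**
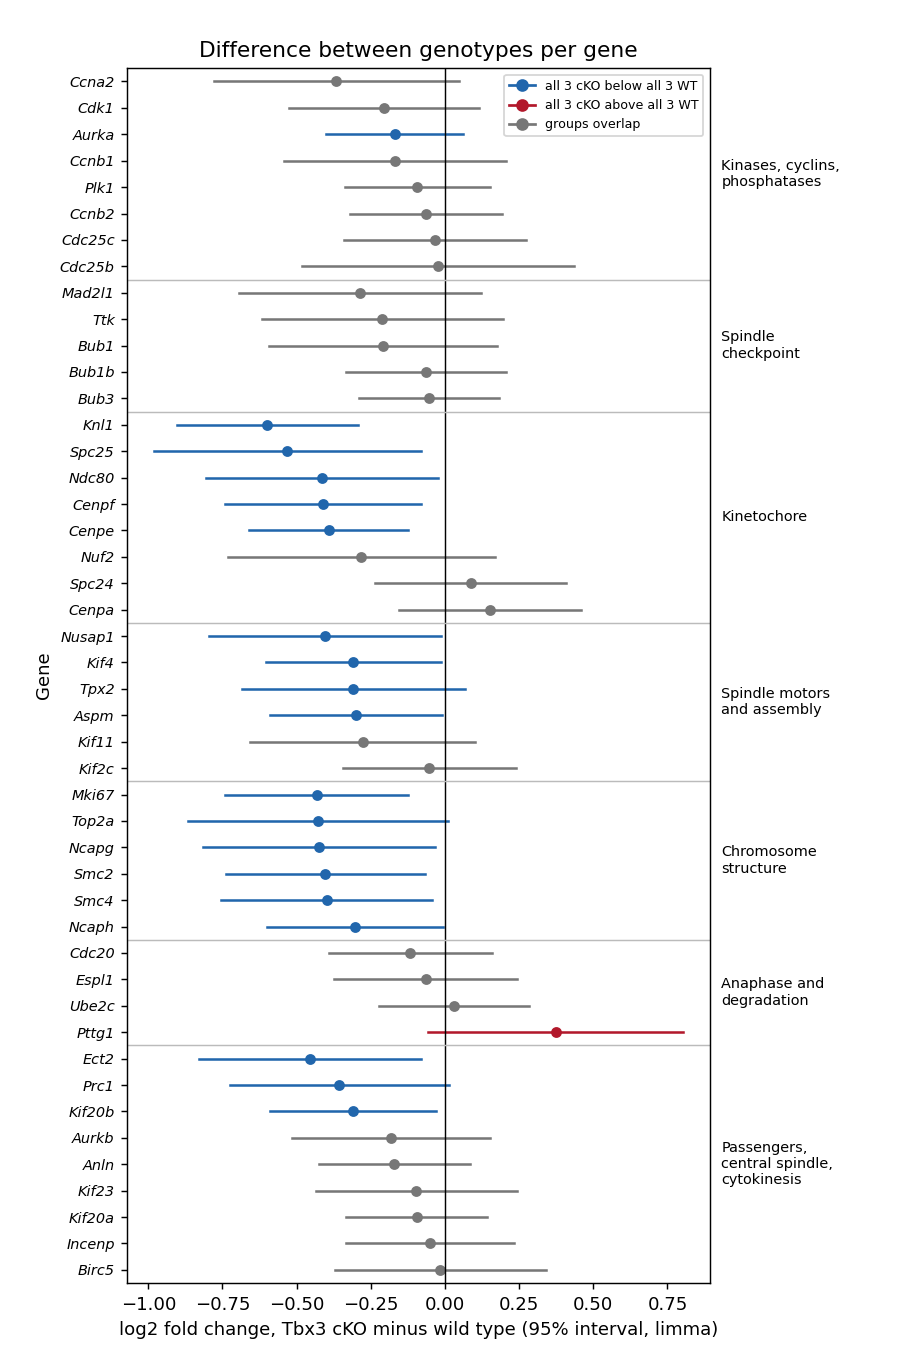
Log2 fold change (Tbx3 cKO minus wild type, x axis) with its 95% interval from limma for each of the 46 genes (y axis), grouped by role; 3 libraries per genotype. Blue marks the 19 genes with every cKO value below every wild-type value, red the 1 gene with every cKO value above (Pttg1), and grey the genes with overlapping groups; the 6 chromosome structure genes are all blue, while among the 4 anaphase genes none is.

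The lowest library was almost always the same one. Tbx3 cKO 3 was lowest of the 6 libraries in 43 of 46 members, where it was lowest in 26.9% of all tested genes, and the exceptions were Cdc25b, Cenpa and Pttg1. The members' median level relative to the wild-type mean was 71.2% in Tbx3 cKO 3, 89.0% in cKO 1 and 95.7% in cKO 2, where the medians over all tested genes were 97.7, 97.8 and 98.7%. The wild-type libraries had medians of 102, 98.7 and 99.4%. Wild type 1 was the highest library in 22 members, where it was highest in 26.5% and lowest in 24.1% of all tested genes.

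Set against all 3 wild types, Tbx3 cKO 1 was below them in 32 of 46 members (32.2% of all tested genes), cKO 2 in 22 (33.1%) and cKO 3 in 43 (38.5%). It was above all 3 wild types in 7 members for cKO 1, 12 for cKO 2 and 1 for cKO 3, where 30, 31.9 and 35.7% of all genes were. The values for cKO 2 alone are thus nearer to the background in both directions than those of the other 2 libraries. Without Tbx3 cKO 3, the median log2 fold change was -0.08. Of the 24 members described in full, 3 turned from negative to positive in that fit (Birc5, Bub3 and Kif2c). Signs of the other members were not counted there. Among them, Kif23 stood at 104.3 and 102.6% of the wild-type mean in cKO 1 and 2. Members lower with no overlap stay so when a library is left out, so their count cannot go down. It was 19 without cKO 3, where 15.6% of all genes then had no overlap and were lower. Members at an unadjusted p under 0.05 and lower then numbered 7, where 4.91% of all genes were. That count moved with other libraries too. It was 5 without wild type 1 (3.45% of all genes), 7 without wild type 2 (6.73%), 2 without wild type 3 (4.19%), but 23 without cKO 2 (8.26%). Without cKO 2, 32 members were lower with no overlap, where 20.4% of all genes were. With the replicate number as a block, 14 members were lower at an unadjusted p under 0.05, where 9.28% of all genes were. A fit on 4 libraries, lacking wild type 1 and cKO 3, gave 3 such members (4.16% of all genes). The spread among cKO libraries was wide: the coefficient of variation had a median of 16.6% in cKO and 4.43% in wild type, and was larger in cKO for 44 of 46 members, where it was larger for 64.6% of all tested genes.

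**Figure D2:**
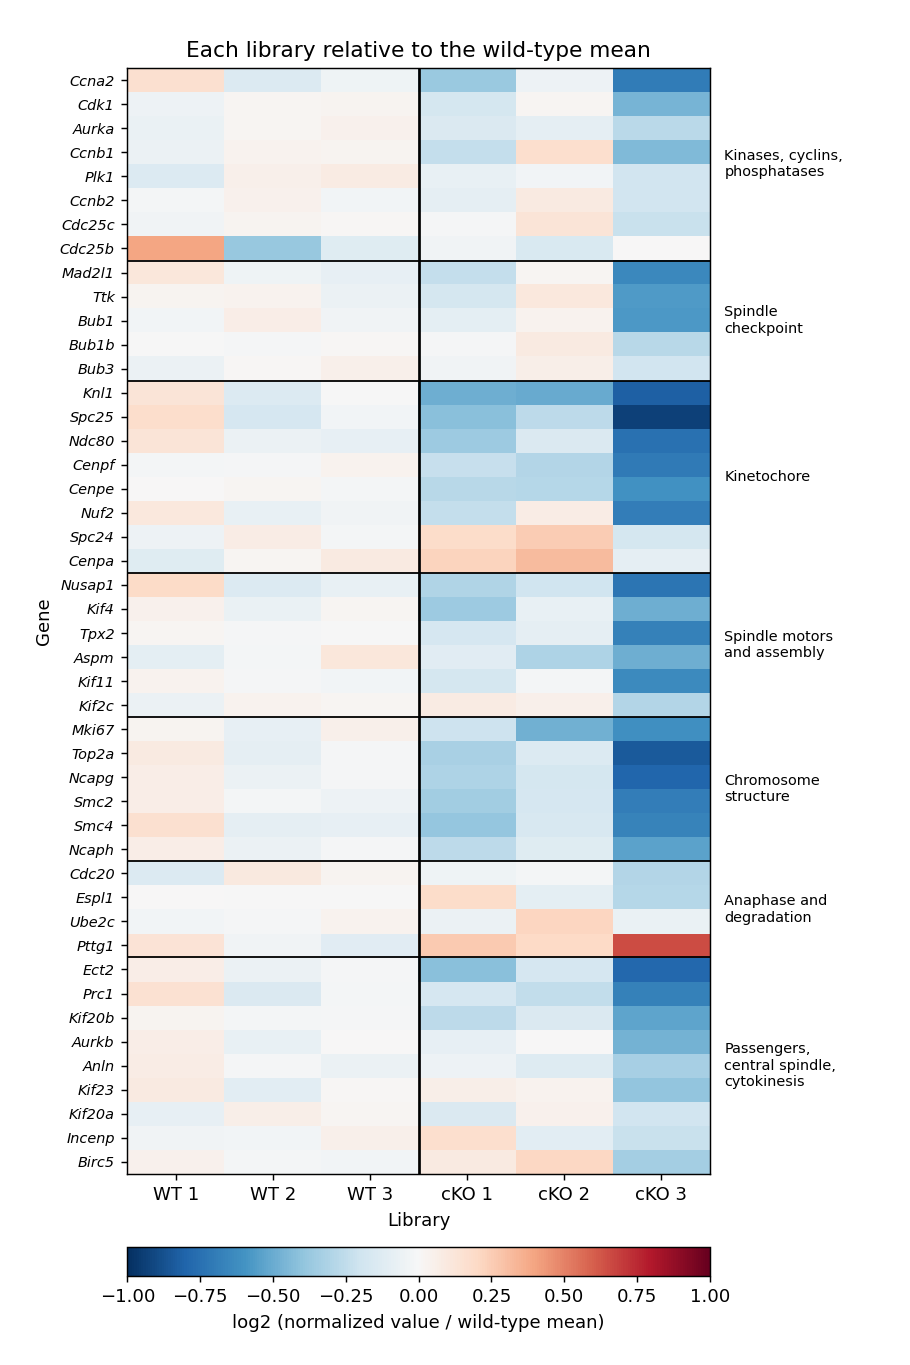
Heat map of the 46 genes (rows, grouped by role) in the 6 libraries (columns); colour gives log2 of the normalized value over the wild-type mean, from -1 (blue) to 1 (red). Tbx3 cKO 3 is the lowest library in 43 of 46 rows, and Pttg1 is the row where all 3 cKO libraries are above the wild types.

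Among the kinases, cyclins and phosphatases that bring cells into mitosis, differences were small. The log2 fold changes of all 8 were negative (median -0.13), 0 stood at an unadjusted p under 0.05, and 1 had no overlap (12.5%, near the 11.7% of all genes). Counts in this and the following groups are to be read against the shares of all genes that were lower. These were 7.16% at an unadjusted p under 0.05 and 11.7% with no overlap. Cdk1 (ENSMUSG00000019942), the kinase at the centre of mitotic entry, was 2640, 2779 and 2799 in the wild types against 2431, 2779 and 1983 in the cKO. Its cKO 2 value lay within the wild-type range, and the log2 fold change was -0.21 by limma (95% interval -0.52 to 0.11, adjusted p = 0.494). Ccna2 (ENSMUSG00000027715), the A cyclin of S phase and early mitosis, was 6725, 5469 and 5850 in the wild types against 4653, 5816 and 3704 in the cKO. Here too cKO 2 lay within the wild-type range, and the log2 fold change was -0.37 (SE 0.17, limma adjusted p = 0.390).

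Ccnb1 (ENSMUSG00000041431), the main B cyclin, was 3451, 3697 and 3663 against 3057, 4051 and 2659, so the highest and the lowest of the 6 values were both from the cKO. Aurka (ENSMUSG00000027496), the centrosomal kinase, was the member of this group with no overlap, at 1666, 1763 and 1801 against 1574, 1637 and 1444 (log2 fold change -0.17, limma adjusted p = 0.450). Cdc25b (ENSMUSG00000027330), a phosphatase that activates Cdk1, was 2147, 1257 and 1503 against 1595, 1476 and 1643. Its spread was among the wild types, with wild type 1 highest of the 6 libraries and wild type 2 lowest. Plk1, Ccnb2 and Cdc25c had log2 fold changes of -0.09, -0.06 and -0.03.

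The 5 spindle checkpoint genes, which delay anaphase until chromosomes are attached, all overlapped between groups, with a median log2 fold change of -0.21 and 0 at an unadjusted p under 0.05. Mad2l1 (ENSMUSG00000029910), the inhibitor of Cdc20, was 3213, 2878 and 2801 in the wild types against 2509, 3008 and 1894 in the cKO (log2 fold change -0.29, limma adjusted p = 0.467). Bub1 (ENSMUSG00000027379), a checkpoint kinase, was 2300, 2455 and 2285 against 2198, 2401 and 1580. Bub3 (ENSMUSG00000066979), which binds Bub1 and Bub1b, was 2922, 3069 and 3148 against 2968, 3180 and 2674. In all 5 genes cKO 2 was at or above the wild-type mean, from 102 to 107% of it, while cKO 3 stood at 63.9 to 87.8%. Ttk and Bub1b had log2 fold changes of -0.21 and -0.06.

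Kinetochore genes split. Of 8, 5 had every cKO value below every wild-type value and the same 5 stood at an unadjusted p under 0.05 (Knl1, Cenpe, Cenpf, Ndc80 and Spc25), while Cenpa and Spc24 had positive log2 fold changes. The median was -0.40. Knl1 (ENSMUSG00000027326), the scaffold that recruits checkpoint proteins to the kinetochore, was 2821, 2337 and 2565 in the wild types against 1831, 1816 and 1462 in the cKO. The 3 cKO values all lay well below the lowest wild type. Its log2 fold change of -0.60 (SE 0.13, 95% interval -0.90 to -0.29) was the largest in size of the 46, with a limma p of 0.00235 before and 0.255 after adjustment. The exact two-sided permutation test gave 0.1, the smallest that 3 against 3 allows, for Knl1 and for the other members with no overlap.

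Cenpe (ENSMUSG00000045328), a kinetochore motor that moves chromosomes to the spindle equator, was 6004, 6046 and 5884 against 4926, 4894 and 3920 (limma log2 fold change -0.39, SE 0.11, adjusted p = 0.320). The wild types were tightly grouped and cKO 1 and 2 were nearly equal. Cenpf, a large protein of the outer kinetochore, was 12076, 12114 and 12518 against 10426, 9994 and 7489 (log2 fold change -0.41). The Ndc80 complex couples kinetochores to microtubules and has 4 subunits, all among the members, which did not move alike. Ndc80 was 1944, 1712 and 1682 against 1381, 1610 and 1063, and Spc25 was 2417, 1907 and 2110 against 1604, 1790 and 1121, both with no overlap. Nuf2 overlapped through cKO 2, at 2274, 2007 and 2068 against 1798, 2224 and 1313. Spc24 (ENSMUSG00000074476) was 1262, 1376 and 1292 against 1485, 1562 and 1158, above all wild types in cKO 1 and 2 and below them in cKO 3. The log2 fold changes were -0.41 for Ndc80, -0.53 for Spc25, -0.28 for Nuf2 and 0.09 for Spc24, with 95% intervals of -0.98 to -0.08 for Spc25 and -0.24 to 0.41 for Spc24. Cenpa, the histone variant that marks centromeres, was 2934, 3241 and 3398 against 3722, 3970 and 2999 (log2 fold change 0.15, limma adjusted p = 0.595). It too was above all wild types in cKO 1 and 2, while cKO 3 lay within the wild-type range.

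Of 6 genes of spindle motors and spindle assembly, 4 had no overlap and 3 stood at an unadjusted p under 0.05, with a median log2 fold change of -0.30. Kif4 (ENSMUSG00000034311), a chromosome-bound kinesin, was 2913, 2701 and 2867 in the wild types against 2204, 2679 and 2010 in the cKO (log2 fold change -0.31, limma adjusted p = 0.360). Its cKO 2 value lay just under the lowest wild type. Nusap1 (ENSMUSG00000027306), which bundles spindle microtubules, was 4161, 3303 and 3456 against 2957, 3164 and 2188 (log2 fold change -0.40, limma adjusted p = 0.363). Aspm, a spindle pole protein that neural progenitors need to divide symmetrically, was 4793, 5064 and 5546 against 4754, 4154 and 3660 (log2 fold change -0.30). Its gap between the groups was narrow, between wild type 1 and cKO 1. Tpx2, an activator of Aurka on the spindle, had no overlap (log2 fold change -0.31), and Kif11, the motor that separates spindle poles, overlapped (-0.28). Kif2c (ENSMUSG00000028678), a microtubule depolymerase, was 2120, 2253 and 2239 against 2329, 2286 and 1802 (log2 fold change -0.05), above all wild types in cKO 1 and 2.

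Genes of chromosome structure were the most uniform group. All 6 had every cKO value below every wild-type value, 5 of them stood at an unadjusted p under 0.05, and the median log2 fold change was -0.41 with a range of -0.43 to -0.30. Mki67 (ENSMUSG00000031004), which coats mitotic chromosomes and is the common marker of cycling cells, was 29706, 27470 and 30237 in the wild types against 25176, 20910 and 19093 in the cKO. It was the member where cKO 2 and cKO 3 were closest to each other among these 6, with a log2 fold change of -0.43 (SE 0.13, 95% interval -0.74 to -0.12, limma adjusted p = 0.324). Top2a (ENSMUSG00000020914), the topoisomerase that untangles chromosomes, was 24721, 21778 and 23042 against 18550, 21139 and 12972. Its cKO 2 value came within a few percent of the lowest wild type (limma log2 fold change -0.43, SE 0.19, adjusted p = 0.370).

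Smc2 and Smc4 form the core of both condensins. Smc2 (ENSMUSG00000028312) was 5966, 5600 and 5499 against 4476, 5050 and 3517 (log2 fold change -0.40, limma adjusted p = 0.338), and Smc4 was 10445, 8779 and 8852 against 7173, 8383 and 5884 (-0.40). Ncapg and Ncaph, the members that encode subunits of condensin I but not of condensin II, had log2 fold changes of -0.42 and -0.30. Ncaph (ENSMUSG00000034906) was 2646, 2431 and 2499 against 2105, 2326 and 1744 (limma adjusted p = 0.365). The order of the cKO libraries was the same in Top2a, Smc2, Smc4, Ncapg and Ncaph, with cKO 2 highest and cKO 3 lowest.

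The 4 genes of anaphase and protein degradation had a median log2 fold change of -0.02 with 0 at an unadjusted p under 0.05. Cdc20 (ENSMUSG00000006398), the activator of the anaphase-promoting complex, was 2990, 3510 and 3335 in the wild types against 3174, 3242 and 2670 in the cKO (log2 fold change -0.12, 95% interval -0.39 to 0.16). Ube2c (ENSMUSG00000001403), the ubiquitin-conjugating enzyme of that complex, was 2252, 2281 and 2349 against 2201, 2658 and 2197 (limma log2 fold change 0.03, 95% interval -0.22 to 0.28, adjusted p = 0.911). The means were close, but the cKO values were spread more widely, with cKO 2 above all wild types and cKO 1 and 3 below them. Pttg1 (ENSMUSG00000020415), securin, the inhibitor of separase, was 318, 283 and 268 against 348, 332 and 456 (limma log2 fold change 0.37, SE 0.18, adjusted p = 0.398). It was the only member with every cKO value above every wild type, and its highest value was in cKO 3, the library that was lowest in 43 others. Espl1, separase itself, was 2448, 2425 and 2435 against 2769, 2279 and 1999, with cKO 1 above and cKO 2 and 3 below the tightly grouped wild types.

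Of the 9 genes of chromosomal passengers, central spindle and cytokinesis, 3 had no overlap, 2 stood at an unadjusted p under 0.05 and the median log2 fold change was -0.17. Ect2 (ENSMUSG00000027699), the exchange factor that turns on RhoA at the furrow, was 3255, 2980 and 3079 in the wild types against 2323, 2759 and 1805 in the cKO (limma log2 fold change -0.46, SE 0.16, adjusted p = 0.335). Kif20b (ENSMUSG00000024795), a kinesin of the midbody, was 2339, 2260 and 2269 against 1912, 2067 and 1592 (log2 fold change -0.31, limma adjusted p = 0.351). Prc1, which bundles the central spindle, had no overlap (log2 fold change -0.36). The passenger complex itself differed little: Aurkb (ENSMUSG00000020897), its kinase, was 2212, 2010 and 2123 against 1997, 2121 and 1526 (log2 fold change -0.18, limma adjusted p = 0.555). Birc5 (ENSMUSG00000017716), survivin, was 2272, 2178 and 2168 against 2347, 2540 and 1741 (log2 fold change -0.02, 95% interval -0.37 to 0.34). In Birc5 the cKO values lay on both sides of all wild types. Incenp, the scaffold of the complex, had a log2 fold change of -0.05, and Anln, Kif20a and Kif23 had -0.17, -0.10 and -0.10.

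The members also differed along transcript length, which the choice of genes did not use. Lengths are those of the longest protein-coding transcript in GENCODE M21, an annotation of another build than the one the authors named. Across the 46 genes, Spearman's rho between length and log2 fold change was -0.52 (Pearson's r with log2 length -0.52), and across 14098 tested genes with a length it was -0.23 (r -0.15). Genes of 1 sample share their library and are not independent, so these are descriptions. The 23 shortest members (1466 to 3398 bases) had a median log2 fold change of -0.10 with 5 lower with no overlap, and the 23 longest (3414 to 11130 bases) had -0.31 with 14. Among all tested genes, those above the members' median length of 3406 bases had a median of -0.11 and 20.1% lower with no overlap, and those at or below it 0.03 and 8.11%. Longer transcripts thus tended to have lower log2 fold changes in the table as a whole, and the part of length in the members' differences was not tested. Taken alone, cKO 2 had the strongest relation among the members (rho -0.58) and among all genes (-0.40). For cKO 3 the values were -0.44 and -0.14, and for cKO 1 they were -0.37 and -0.08. Spc25 and Ndc80 were short genes among the lower ones, with 1527 and 2201 bases, and Espl1 was a long one near 0, with 6658.

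**Figure D3:**
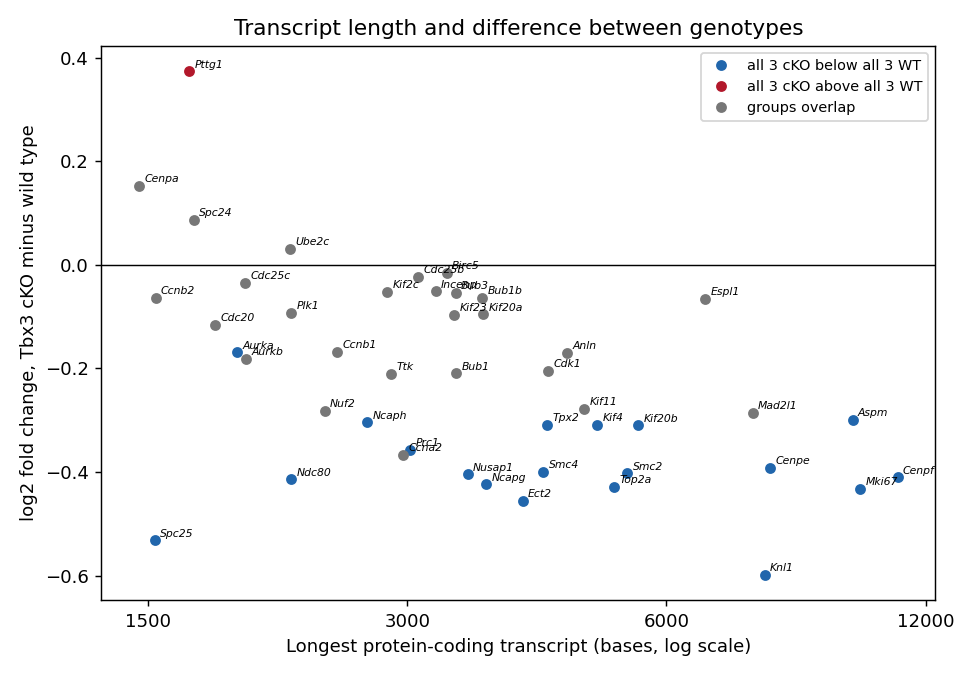
Length of the longest protein-coding transcript (bases, log scale, x axis) against log2 fold change (Tbx3 cKO minus wild type, y axis) for the 46 genes, 1 point each, coloured by whether the groups overlap. The 4 genes above 0 (Pttg1, Cenpa, Spc24 and Ube2c) are at most 2191 bases long. All 5 genes of 7800 bases or more have every cKO value below every wild-type value. The next longest, Mad2l1 (7557 bases), has overlapping groups, as has Espl1 (6658 bases).

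Most other genes of mitosis also had a negative difference. The log2 fold change was negative in 106 of 120 such genes and positive in 14, and its median was -0.18. None was called by limma after adjustment, 21 stood at an unadjusted p under 0.05 and lower (17.5%, against 7.16% of all genes) and 0 higher, and 34 were lower with no overlap (28.3%, against 11.7% of all genes) and 0 higher. The counts of the separate lists are to be read against the same 2 shares, and those of entry regulators (8.33% with no overlap), transcriptional regulators (13.3%) and S phase genes (4.76%) were near or below 11.7%. Of 14 other condensin and cohesin genes, 7 stood at an unadjusted p under 0.05 and 10 had no overlap (median -0.28). Among them Pds5b, which regulates cohesin, was 5160, 5327 and 5495 in the wild types against 4505, 4383 and 4081 in the cKO. Of 33 other kinetochore and centromere genes, 4 stood at an unadjusted p under 0.05 and 9 had no overlap (median -0.18), among them Cenpc1, which links centromeric chromatin to the kinetochore (log2 fold change -0.41). Of 24 other spindle genes, 5 and 8 did (median -0.18), among them the microtubule polymerase gene Ckap5 (-0.48).

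Of 17 other genes of the anaphase-promoting complex, 1 stood at an unadjusted p under 0.05 and 3 had no overlap (median -0.08). The one was Cdc27, a core subunit, at 3428, 3460 and 3564 in the wild types against 2965, 2880 and 2942 in the cKO, with cKO libraries as close to each other as the wild types were. Of 12 other kinases and regulators of entry, 0 and 1 did (median -0.19), with Melk at a log2 fold change of -0.38. Of 5 other cytokinesis genes, 0 and 1 did (median -0.26), the latter being Kif14 (-0.26). Of 15 transcriptional regulators of the cell cycle, 4 stood at an unadjusted p under 0.05 and 2 had no overlap (median -0.24). Rbl1, a pocket protein of the DREAM complex, was 2112, 1715 and 1945 against 1479, 1451 and 1379. Foxm1, an activator of late cell cycle genes chosen for naming after its values were seen, was 4091, 3645 and 3851 against 3694, 3329 and 2369. All 21 S phase genes had negative values (median -0.24), but 1 stood at an unadjusted p under 0.05 and had no overlap, the ligase gene Lig1 (-0.34).

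Summed over the members, the level was 192840 to 205150 in wild type (0.786 to 0.820% of all normalized reads). In cKO 1, 2 and 3 it was 174560, 181060 and 135850 (0.743, 0.741 and 0.567%), so the groups did not overlap. The sum was 87.6, 90.9 and 68.2% of the wild-type mean in these libraries. Set against the sum of the 21 S phase genes, the ratio was 2.58, 2.41 and 2.42 against 2.53, 2.24 and 2.45 (wild types against cKO), which overlapped. Set against the sum of 9 markers of multipotent progenitors, it was 2.66, 2.59 and 2.46 against 2.08, 2.40 and 2.82, so cKO 1 and 2 were below all wild types and cKO 3 above them. These 9 markers did not move alike, with 6 negative and 3 positive log2 fold changes. Among the positive ones, Lhx2 was 4540, 4322 and 4903 in the wild types against 9661, 8276 and 7402 in the cKO. The ratio thus depends on the markers chosen and is no measure of mitosis RNA per progenitor. The progenitor markers stood at 108, 97.3 and 62.2% of the wild-type mean in cKO 1, 2 and 3, beside 87.6, 90.9 and 68.2% for the mitosis genes.

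**Figure D4:**
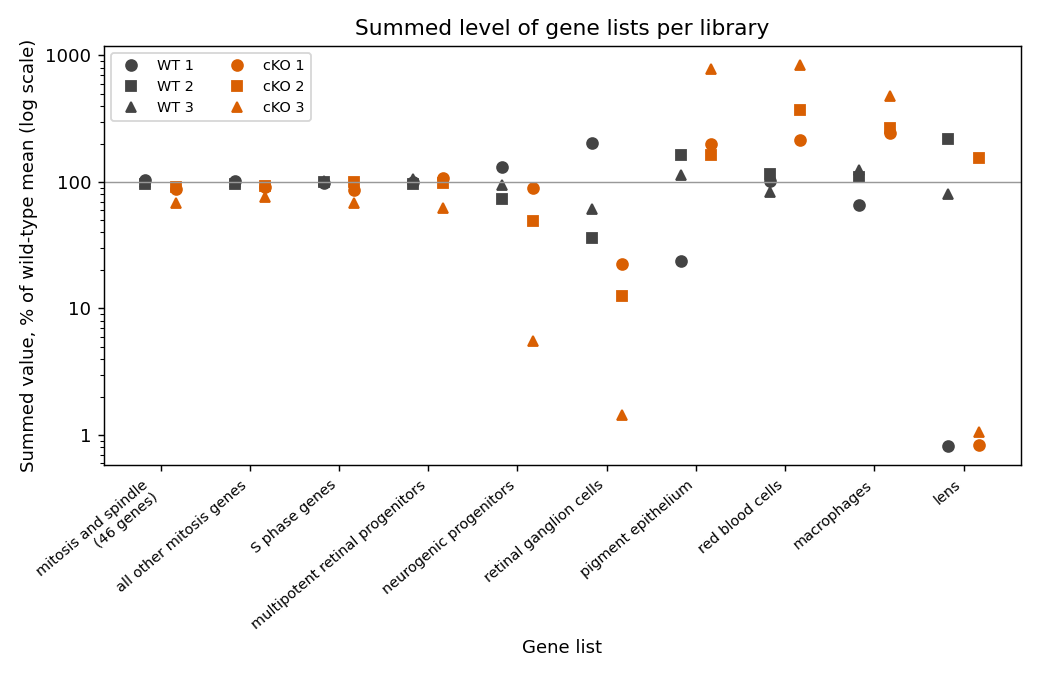
Summed normalized value of gene lists in each library as a percentage of the wild-type mean (log scale, y axis), with lists along the x axis, wild types in dark grey and Tbx3 cKO in orange; shapes give the library number. The 46 mitosis and spindle genes range from 68.2 to 90.9% in the cKO, while the ganglion cell markers range from 1.44 to 22.5% and the red blood cell markers from 214 to 841%.

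Markers of several cell types moved with the genotype or with single libraries, and their part in the mitosis values was not tested. None of the retinal marker genes was called after adjustment by limma, and 11.7% of all genes were lower with no overlap. The 9 ganglion cell markers, of neurons that no longer divide, summed to 14801 to 82335 in wild type and 588 to 9180 in cKO, with 8 of 9 lower with no overlap and Pou4f2 at 0 in cKO 3. The 8 neurogenic progenitor markers summed to 19172 to 34857 and 1459 to 23461, with 1 of 8 lower with no overlap. The 7 amacrine and horizontal cell markers summed to 8850 to 11704 and 2615 to 7117. Lhx1 was at 0 in wild type 2 and in all cKO libraries, and Ptf1a in cKO 3. The 5 photoreceptor precursor markers summed to 2552 to 9097 and 1881 to 5649, with 2 lower with no overlap. Of the 9 multipotent progenitor markers, 1 was lower and 1 higher with no overlap (sums 74579 to 81272 and 48254 to 83855).

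Cells from outside the neural retina can divide too, and markers of red blood cells, macrophages and pigment epithelium had positive log2 fold changes throughout, with 0 called after adjustment by limma (7, 8 and 3 higher at an unadjusted p under 0.05). With no overlap, 10.6% of all genes were higher. The 9 red blood cell markers summed to 50090 to 69547 in wild type and 128630 to 506490 in cKO, with 6 of 9 higher with no overlap, and the 8 macrophage markers to 679 to 1294 and 2529 to 4948, with all 8. The 7 pigment epithelium markers summed to 812 to 5623 and 5589 to 27133, with 4 of 7 higher with no overlap, although the sums of wild type 2 and cKO 2 overlapped. The 8 endothelial markers (3725 to 4557 and 3321 to 5430) and the 8 of periocular mesenchyme (862 to 6986 and 2659 to 11419) overlapped in every gene. Even so, all 8 mesenchyme log2 fold changes were positive (median 1.29), with 0 at an unadjusted p under 0.05. Of the endothelial ones, 7 were positive and 1, Kdr, was negative (median 1.48). Higher at an unadjusted p under 0.05 were 2 of them (6.39% of all genes). Kdr, the largest part of the endothelial sums in wild type, was 4232, 2427 and 3066 there against 2978, 2301 and 902 in the cKO. The 8 lens markers also overlapped in every gene. They were high in wild type 2, wild type 3 and cKO 2 (54940 to 151290) and 563 to 729 in the other 3 libraries.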

How the data were processed

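Poly(A) RNA of retinas was made into strand-specific libraries, per the labels' protocols. The deposited values are a signal, read counts per gene normalized by the authors, whose scaling, counter, annotation and strand setting were not given in the sources used here. Named in the submitters' processing notes are cutadapt 4.2, STAR 2.7.8a, Partek and GRCm39 (mm39). The values are not whole: 76.5 to 78.8% of low values (up to 20 steps) lay within 0.02 steps of a multiple of 1 read, which gave the estimated read totals. Exons of 11 members overlap a gene on the opposite strand in GENCODE M21 (Ccna2, Cdc20, Cdc25b, Cdc25c, Kif20a, Kif4, Ncapg, Nusap1, Plk1, Prc1 and Ube2c), and those of Top2a a small RNA, so their values are less certain.

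Tested were the 18914 genes that reached 10 in 3 or more libraries, on log2(value + 1), with limma-trend (limma 3.58.1, R 4.3.3), two-sided, with no covariate or block, Benjamini-Hochberg adjustment and a threshold of 0.05. The fit was tested on simulated counts. Single genes also had exact permutation tests. Promoters came from RefSeq (GRCm38.p6) by symbol. Alternatives covered the pseudocount, filter, scaling, replicate block, trend, library weights and left-out libraries. Described in full were, in each of 7 role groups, the 2 members of smallest and the 1 of largest p, with Mki67, Cdk1, Ccnb1, Aurkb and Top2a. From each other mitosis list the gene of smallest p was taken, and from each marker list up to 2 genes. A marker gene that this rule takes is not reported here. Others are named as members or were chosen after their values were seen. The members and lists were chosen with earlier results of these data known. The marker Rpe65 has no row in the table used.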

Additional observations from a re-analysis of the deposited data

How the results depend on the processing

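Under each of the 17 alternatives, 0 members were called after adjustment, and the median log2 fold change of the members stayed negative. Leaving out 1 library gave a median of -0.334 (without Tbx3 cKO 2) to -0.0849 (without Tbx3 cKO 3). The count of lower members at an unadjusted p under 0.05 was 15 with all libraries. It was 8 with equal totals (5.68% of all genes) and 8 with quantile normalization (6.12%). With library weights it was 19 (8.95%), and with no filter 16 (6.47%). It was 3 without the mean-variance trend (4.87%) and 3 without wild type 1 and cKO 3 together (4.16%). A count of 3 is 6.52% of the members, close to the share of all genes. Leaving out 1 library gave 2 to 23. Without wild type 1, 2 and 3 the count was 5, 7 and 2 (3.45, 6.73 and 4.19% of all genes). Without Tbx3 cKO 1, 2 and 3 it was 10, 23 and 7 (8.38, 8.26 and 4.91%). The cause was not tested. The count lower with no overlap, 19 with all libraries, was 19 to 32 without 1 library, where 14.5 to 20.4% of all genes were. The 32 was reached without Tbx3 cKO 2 (20.4%). By construction, leaving out a library cannot take the count below 19. With equal totals it was 16 (9.3% of all genes).

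Same-numbered libraries did not deviate together beyond wild type 1 and Tbx3 cKO 1 (correlations of 0.33, 0.018 and 0.0424), and not every library correlated best with its own number. With the number as a replicate block, 0 members were called, 14 were lower at an unadjusted p under 0.05, 19 were lower with no overlap, and the median was -0.21.

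Signs were compared over the alternatives only for the 24 members described in full. Among these, genes near 0 changed sign. Birc5 was 0.0241 with equal totals, 0.0746 with quantile normalization, 0.0525 with library weights and 0.168 without wild type 1 and cKO 3 together. Leaving out single libraries gave it -0.125 to 0.147 (0.00554 without wild type 1). Cdc25b was 0.0165, 0.0549, 0.0700 and 0.158 in the same 4 fits and -0.195 to 0.191 without single libraries (0.0211 without cKO 2). With quantile normalization Bub3 was 0.0461 and Kif2c 0.0311. Without single libraries Bub3 was -0.112 to 0.0129 and Kif2c -0.118 to 0.0666, and Kif2c was 0.0390 without wild type 1 and cKO 3 together. Ube2c was -0.00137 with library weights and -0.0609 to 0.0766 without single libraries. The lowest member value in any library was 268, and the 95% interval includes 0 for 31 members.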
